A study of Mus musculus with 12 samples.

Results

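The comparison described here is between 3 livers of mice fed Dongjin rice (DJ) and 3 livers of mice fed a resveratrol diet (RS), chosen by the titles of the arrays, and it takes in 6 of the 12 arrays of the study. All mice were female C57BL/6N, an inbred strain, bought at 6 weeks of age and killed after 6 months on a normal formula diet. In RS that diet kept corn starch and sucrose as its carbohydrates and contained resveratrol. In DJ the starch and sucrose gave way to rice of the cultivar Dongjin, the unmodified parent of a resveratrol-enriched line. The diets of the 2 groups therefore differ in both the carbohydrate source and the resveratrol, and an effect of one cannot be told apart from an effect of the other. The remaining groups, Ctrl (starch and sucrose without resveratrol) and DJ526 (the resveratrol-enriched rice), had 3 mice each. They entered the estimate of the spread and are given as levels for orientation. Groups follow the titles of the arrays. A sample table supplied with the study exchanges the accessions of DJ and RS, and under it every difference below would change sign. Each mouse gave 1 array, so that n = 3 per group throughout.

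Resveratrol is a stilbene of grapes and other plants, and it is best known in liver for acting on enzymes that sense energy: the sirtuins, which consume NAD, AMP-activated protein kinase, and phosphodiesterases. White rice and purified starch are both digested to glucose, whereas sucrose also delivers fructose, which the liver takes up first. Many hepatic genes of bile acid, lipid and NAD metabolism follow the circadian clock, a loop in which CLOCK and its partner switch on the Period genes and D-box proteins, while nuclear receptors such as REV-ERB set the rhythm of the partner. The hour of the day at which the livers were taken is not given in the sources used here.

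Signals were read as log2 of the processed intensity relative to the 75th percentile of the array, so that 0 is the signal at that percentile and a difference of 1 is a factor of 2. Of 39429 probes, 27842 were well above the local background on all 6 arrays. These read 15818 named genes, each by its brightest probe. On the 12 arrays 73.0% to 80.8% of the spots were well above background and none was saturated. The 6 arrays lay on 3 slides: DJ replicate 1 was on a slide with the controls and RS replicate 3 on the slide of DJ526, and the other 4 arrays (DJ replicates 2 and 3, RS replicates 1 and 2) shared a slide. These 2 arrays off the shared slide also stood furthest from their groups. RS replicate 3 had 443 genes more than 1 log2 unit above both other RS arrays and DJ replicate 1 had 298 above both other DJ arrays, against 18 to 73 for the remaining arrays. Differences within the shared slide are therefore printed beside the leading genes with the smallest p-values, and wherever they moved the difference of a leading gene by more than 1.5 times, which was so at 1 of the 30. The part of the slide in the differences over all 6 arrays was not tested beyond that.

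The tissue carried its label. All 10 hepatocyte markers, among them Alb (albumin) and Ttr (transthyretin), were well above background on every one of the 6 arrays. The log2 of the summed hepatocyte signal was 11.21, 11.28 and 11.22 in DJ and 11.11, 11.18 and 11.20 in RS, so that the highest RS array lay just below the lowest DJ array. None of the 10 markers had an unadjusted p under 0.05, and the sign of 9 of them changed under some alternative. Their differences were between -0.10 for Tdo2 and 0.19 for Apob, with Apoa1, Serpina1a, Tat, Hnf4a, Cyp2e1 and Asgr1 between them. The summed levels of the markers of Kupffer cells, B cells, T and NK cells, neutrophils, endothelium, stellate cells, cholangiocytes, red cells, exocrine pancreas, adipocytes, skeletal muscle, and intestine and kidney overlapped between DJ and RS.

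No gene passed the test between the diets. After Benjamini-Hochberg adjustment in limma, 0 of 39429 probes (0.0%) were called, the smallest adjusted p being 0.932. At an unadjusted p under 0.05 there were 1389 probes (3.52%), of which 472 were higher and 917 lower in DJ. This was the smallest count among the 6 pairs of diet groups, whose other counts ran from 2057 to 4257. DJ and RS were also the only pair with 2 arrays of each group on 1 slide. All controls lay on 1 slide and all DJ526 arrays on another. The order of the pairs by diet therefore cannot be told apart from that by slide. The excess of lower probes depended on the scaling: array median scaling gave 781 higher and 552 lower, quantile normalization 757 and 763, normexp background correction 1155 and 381, and the normalized values as deposited gave 252 and 1475. Without DJ replicate 1 the unadjusted count was 2302, and without RS replicate 1 it was 2484. Among the 15818 detected genes the split was even, with 290 higher (1.83%) and 291 lower (1.84%) at an unadjusted p under 0.05.

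The intervals show what sizes of change were left within reach. For 89.8% of the detected genes the 95% interval of the difference lay wholly within 1 log2 unit of 0, that is, within a factor of 2 in either direction, and for 57.1% it lay within 0.5 log2 units. The median absolute difference was 0.10 and 34 genes (0.215%) differed by more than 1 log2 unit, of which 14 had groups that did not overlap. In simulated data of the same size limma recovered 41.5% of changes of 1 log2 unit and 77.5% of changes of 2. The simulated noise was independent for each probe and array, with no slide difference, and the probes included undetected ones. Changes of a factor of 2 in single genes could thus escape the adjusted test, and the rates need not hold for these arrays. Over the detected genes, the 3 DJ and the 3 RS arrays did not overlap at 514 genes with DJ higher (3.25%) and at 591 with DJ lower (3.74%). An exact permutation test of 3 against 3 arrays cannot give a p below 0.1, which is what each gene without overlap has. All genes named below have an adjusted p of 0.932 or more in limma. Their unadjusted p-values, from the same limma fit, rank them and do not call them.

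Of the genes without overlap and with an unadjusted p under 0.05, 213 were higher and 212 lower in DJ, and the 15 with the largest differences in each direction were taken as the leading genes. The plot of the leading genes shows 29 of these 30. Over these 425 genes the median absolute difference was 0.34 log2 units over all 6 arrays and 0.31 within the shared slide, where the sign is fixed by the choice of genes without overlap.

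**Figure D1:**
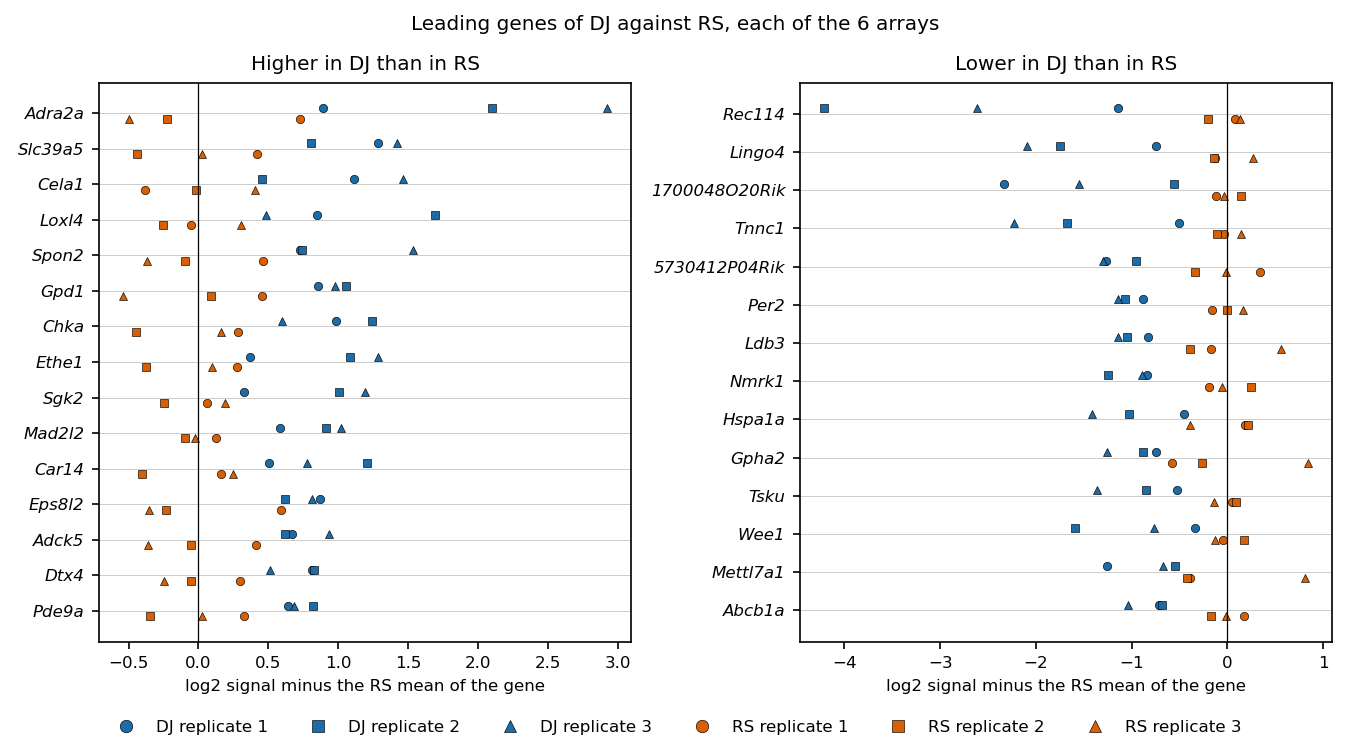
Leading genes of DJ against RS, 29 of the 30, with log2 signal minus the RS mean of each gene on the x axis and 1 point per array (blue DJ, orange RS; circle, square and triangle are replicates 1, 2 and 3). DJ replicate 1 is the DJ array nearest to RS at Rec114, Lingo4, Tnnc1 and Adra2a, whereas the 3 DJ arrays lie close together at Per2, Pde9a and Abcb1a.

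The smallest p-values of the 30 leading genes belonged to Abcb1a, Per2, Nmrk1 and Tsku, all lower in DJ. Per2, a Period gene of the clock, had a log2 signal of -1.41, -1.60 and -1.67 in DJ and of -0.69, -0.53 and -0.37 in RS, a difference of -1.03 (SE 0.17, limma unadjusted p = 7.1e-05). The spread within each group (SD 0.135 and 0.158, n = 3) was small beside this gap. The difference was -1.03 within the shared slide too, and it ran from -1.11 to -0.91 over all alternatives tried. Abcb1a, one of the mouse P-glycoproteins that pump drugs out of cells, read -0.35, -0.32 and -0.67 in DJ against 0.54, 0.20 and 0.36 in RS, a difference of -0.81 (SE 0.13, limma unadjusted p = 6.3e-05). The shared slide gave -0.87. The control mean was -0.53 for Per2 and 0.13 for Abcb1a, nearer to RS than to DJ at both genes.

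Of the 20 detected genes of the circadian clock list, 4 were lower in DJ at an unadjusted p under 0.05 and 0 were higher, beside 1.84% and 1.83% of all detected genes. The median of the list was -0.21, where that of all detected genes was -0.01. Among the 4 were Per2, Per3 and Usp2.

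Per3, the third Period gene, was -3.03, -3.03 and -2.81 in DJ and -2.21, -2.45 and -1.88 in RS (difference -0.77, SE 0.31). Usp2, a ubiquitin protease with a strong daily rhythm, was 1.92, 0.89 and 1.48 against 2.03, 2.09 and 2.31 (difference -0.71, SE 0.31). Wee1, a kinase that holds back entry into mitosis and a known clock output, was not on the list but among the leading genes, at -0.59, -1.85 and -1.03 in DJ and -0.31, -0.08 and -0.39 in RS. All of these were nearer to the control level in RS than in DJ except Per3, whose control mean of -2.63 lay between the groups.

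The rest of the loop lay on both sides. Cry1, Dbp and Ciart had lower means in DJ (-0.71, -0.43 and -0.29) and Nr1d1 a higher one (0.50). The 95% interval of each of these differences included 0. Per1 differed by 0.06 (95% interval -0.26 to 0.37). Clock was higher in DJ without overlap, at -0.76, -0.72 and -1.25 against -1.26, -1.40 and -1.45, with an interval that reached just below 0 (-0.02 to 0.94). Arntl, the partner of CLOCK, had no usable spot on DJ replicate 2 and overlapped on the other arrays (-0.35 and -2.40 in DJ, -2.43 to -1.22 in RS). Of the genes chosen after their values were seen, Csnk1d was the other list member that was higher without overlap (0.10) and Tef, a D-box factor, the fifth that was lower without overlap (-0.35). Several rhythmic members, Dbp, Nr1d1 and Cry1, were close together in RS and spread in the other groups. They too were chosen after their values were seen. Ciart, chosen likewise, was spread in RS as well (SD 0.70, and 0.88 in DJ). Per1 and Per3 were more spread in RS (SD 0.26 and 0.29) than in DJ (0.16 and 0.12). Dbp, the D-box factor of the clock, read 3.40, 3.76 and 5.27 in DJ but 4.46, 4.78 and 4.49 in RS. Nr1d1, which encodes REV-ERB-alpha, read -3.13, -1.30 and -0.51 in DJ but -2.22, -1.94 and -2.30 in RS. Cry1 read -2.11, -3.35 and -4.61 in DJ but -2.66, -2.81 and -2.46 in RS. In these 3 genes the RS mice lay inside the range of the DJ mice. The spread of the controls (SD 1.57, 1.37 and 1.07) was similar to that of DJ (0.99, 1.34 and 1.25), and that of DJ526 lay between 0.67 and 0.76. The median of the clock list was -0.11 without DJ replicate 1, -0.12 without DJ replicate 2, -0.13 without RS replicate 3 and -0.09 within the shared slide, in place of -0.21. The list count was 2 without DJ replicate 2, 2 without RS replicate 1 and 2 without RS replicate 3, and it was 3 with both arrays off the shared slide left out. Of all detected genes 1.83%, 4.05%, 1.18% and 2.52% were lower in these settings, in that order.

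Of the clock and NAD genes, 6 were searched for in the RefSeq promoter table (build GRCm38.p6). It held 4 of them, Per3, Usp2, Nmrk1 and Nampt. The promoter of Per3 is shown because it alone of these 4 held a searched clock motif. Further clock genes named in this section were not searched for. The window is the 250 bases before the start used in that table, chr4:151044666-151044915, minus strand. That start lies slightly inside the gene, whose span reaches 151044707. The window is printed 5′ to 3′ with the matches to the D-box (TTANGTAA, either strand) in capitals.
Per3: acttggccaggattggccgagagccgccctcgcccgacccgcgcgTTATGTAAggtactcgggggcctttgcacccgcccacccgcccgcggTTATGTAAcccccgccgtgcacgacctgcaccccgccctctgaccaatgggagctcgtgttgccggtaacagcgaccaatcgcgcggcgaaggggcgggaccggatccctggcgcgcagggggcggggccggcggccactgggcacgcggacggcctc
The 2 matches begin 205 and 158 bases before the start. A D-box of these letters was found in 2.32% of the 32851 promoter windows of the table, and an E-box (CACGTG) in 7.15%, each searched on both strands over the whole window of 300 bases. The windows of Usp2, Nmrk1 and Nampt held neither motif. That of Usp2 begins at 44084670, inside the gene, which starts at 44067021, so it does not cover the region before the gene.

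**Figure D2:**
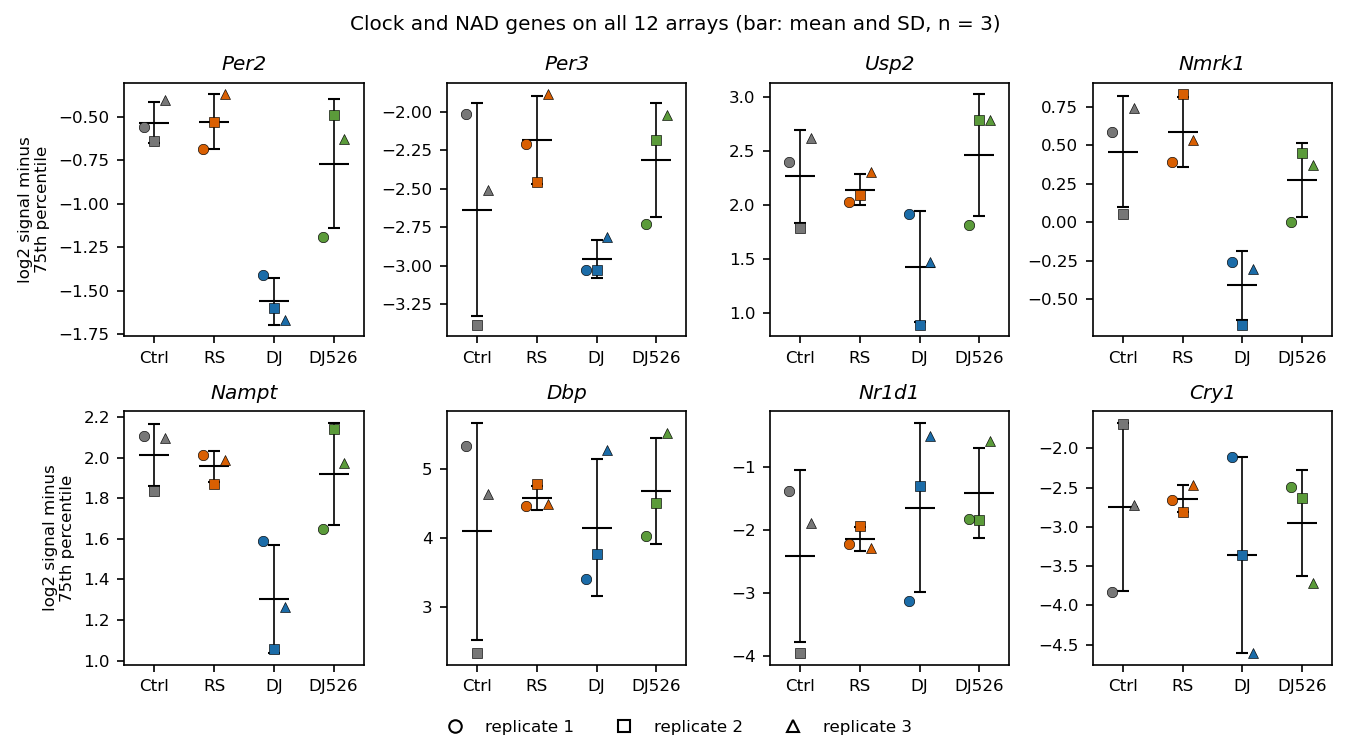
Log2 signal relative to the 75th percentile of the array (y axis) for 8 clock and NAD genes in the 4 diet groups, with 1 point per mouse and bars for mean and SD (n = 3). DJ lies below RS without overlap at Per2, Per3, Usp2, Nmrk1 and Nampt, while at Dbp, Nr1d1 and Cry1 the 3 DJ mice span more than the RS mice.

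Genes of NAD synthesis were also among those lower in DJ. Of 30 detected genes in the list of sirtuins, NAD and AMP-activated kinase, 2 were lower at an unadjusted p under 0.05, 0 were higher, and the median was -0.01. Over all detected genes 1.84% were lower and 1.83% higher. Nmrk1, the kinase that turns nicotinamide riboside into a precursor of NAD, had a signal of -0.26, -0.66 and -0.30 in DJ and of 0.39, 0.83 and 0.54 in RS. The difference was -0.99 (SE 0.20, limma unadjusted p = 0.00036), and -1.10 within the shared slide. Nampt, the rate-limiting enzyme of the salvage of nicotinamide, read 1.59, 1.06 and 1.26 in DJ and 2.01, 1.87 and 1.99 in RS, a difference of -0.65 (SE 0.15, limma unadjusted p = 0.0011). The control means (0.46 for Nmrk1, 2.01 for Nampt) and the DJ526 means (0.27 and 1.92) were near those of RS. Foxo3, seen to be the third list member without overlap, differed by -0.26.

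The enzymes by which resveratrol is best known differed little at the RNA level. Sirt1 read 0.28, -0.11 and -0.12 in DJ and -0.12, 0.11 and 0.06 in RS, and the interval of its difference was -0.25 to 0.25, with a sign that changed with the scaling. The 7 sirtuins ranged from -0.14 to 0.12. Prkaa2, a catalytic subunit of AMP-activated kinase, differed by -0.19 (95% interval -0.43 to 0.05). The whole list of sirtuins, NAD and AMP-activated kinase (30 detected genes) moved with the arrays used, at an unadjusted p under 0.05. It had 4 lower and 2 higher members without DJ replicate 1, where 3.15% of all detected genes were lower and 4.03% higher. It had 5 lower and 0 higher without RS replicate 1 (4.05% and 3.26%), 3 lower and 1 higher without RS replicate 3 (1.18% and 1.34%), and 5 lower and 3 higher with both arrays off the shared slide left out (2.52% and 3.03%).

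Of 19 detected phosphodiesterases, the enzymes that break down cyclic AMP and cyclic GMP, 1 was higher in DJ and 0 lower at an unadjusted p under 0.05. Over all detected genes 1.83% were higher and 1.84% lower. Pde9a, which is specific for cyclic GMP, read 0.06, 0.24 and 0.11 in DJ and -0.25, -0.92 and -0.56 in RS (difference 0.71, SE 0.22). Pde5a had the largest difference of the list (1.38), but it came from 1 mouse: the DJ signals were 0.98, -3.53 and -2.57 and the RS signals -3.74, -3.37 and -2.14. Without that mouse the difference was 0.03.

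Bile acid genes lay on both sides, with 4 higher and 3 lower of 24 detected at an unadjusted p under 0.05 and a median of -0.03. The shares over all detected genes were 1.83% and 1.84%. Higher in DJ were Hsd3b7, an early enzyme of bile acid synthesis (6.25, 6.77 and 6.76 against 6.05, 5.78 and 5.94, a difference of 0.67 with SE 0.20), and Abcb11, the pump that exports bile salts (5.22, 5.78 and 5.15 against 4.90, 5.05 and 5.02). Fgfr4, the receptor for the intestinal hormone that represses bile acid synthesis, was 0.42 higher, and its coreceptor Klb 0.31 higher. Cyp7a1, the rate-limiting enzyme of the classical pathway, read 1.42, 0.09 and -0.53 in DJ and 1.12, 0.98 and 1.64 in RS. Its difference of -0.92 had an interval of -1.84 to -0.01 and the groups overlapped through DJ replicate 1. Abcc4, an exporter on the blood side of the hepatocyte, differed by -0.60 without overlap, and Slco1a4, an uptake transporter, by -0.38 with overlap. The counts were 2 higher and 1 lower without DJ replicate 2 (1.49% and 1.83% over all detected genes). They were 3 and 0 without DJ replicate 3 (1.53% and 1.63%), and 2 and 2 without RS replicate 1 (3.26% and 4.05%).

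The acute phase list had the largest share of members on one side. Of 33 detected genes 8 were higher in DJ at an unadjusted p under 0.05 and 0 were lower. The shares over all detected genes were 1.83% and 1.84%. Without overlap 6 were higher (3.25% over all detected genes). The median was 0.14. The differences were small. Fgl1, a liver-derived fibrinogen-like protein, read 6.56, 6.25 and 6.60 against 6.02, 6.22 and 5.95 (difference 0.41, SE 0.10). Lbp, which binds bacterial lipopolysaccharide, differed by 0.50 and Crp by 0.31. The fibrinogen chains Fga, Fgb and Fgg differed by 0.28, 0.22 and 0.19, and the inhibitors Itih3 and Itih4 by 0.26 and 0.21. A second probe of Fga pointed the other way (-0.57). Saa1, a serum amyloid gene, read 3.96, 4.28 and 4.76 in DJ and 5.11, 4.14 and 3.59 in RS. Its difference of 0.06 ran from -0.29 to 0.47 over the alternatives. The count of 8 was 4 without DJ replicate 2, 3 without DJ replicate 3, 4 without RS replicate 1, 4 without RS replicate 3 and 2 with both arrays off the shared slide left out. Of all detected genes 1.49%, 1.53%, 3.26%, 1.34% and 3.03% were higher in these settings, in that order. The median of the list was 0.03 without DJ replicate 3. The summed hepatocyte signal, given above, moved in the same direction, and its part in these small differences was not tested.

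**Figure D3:**
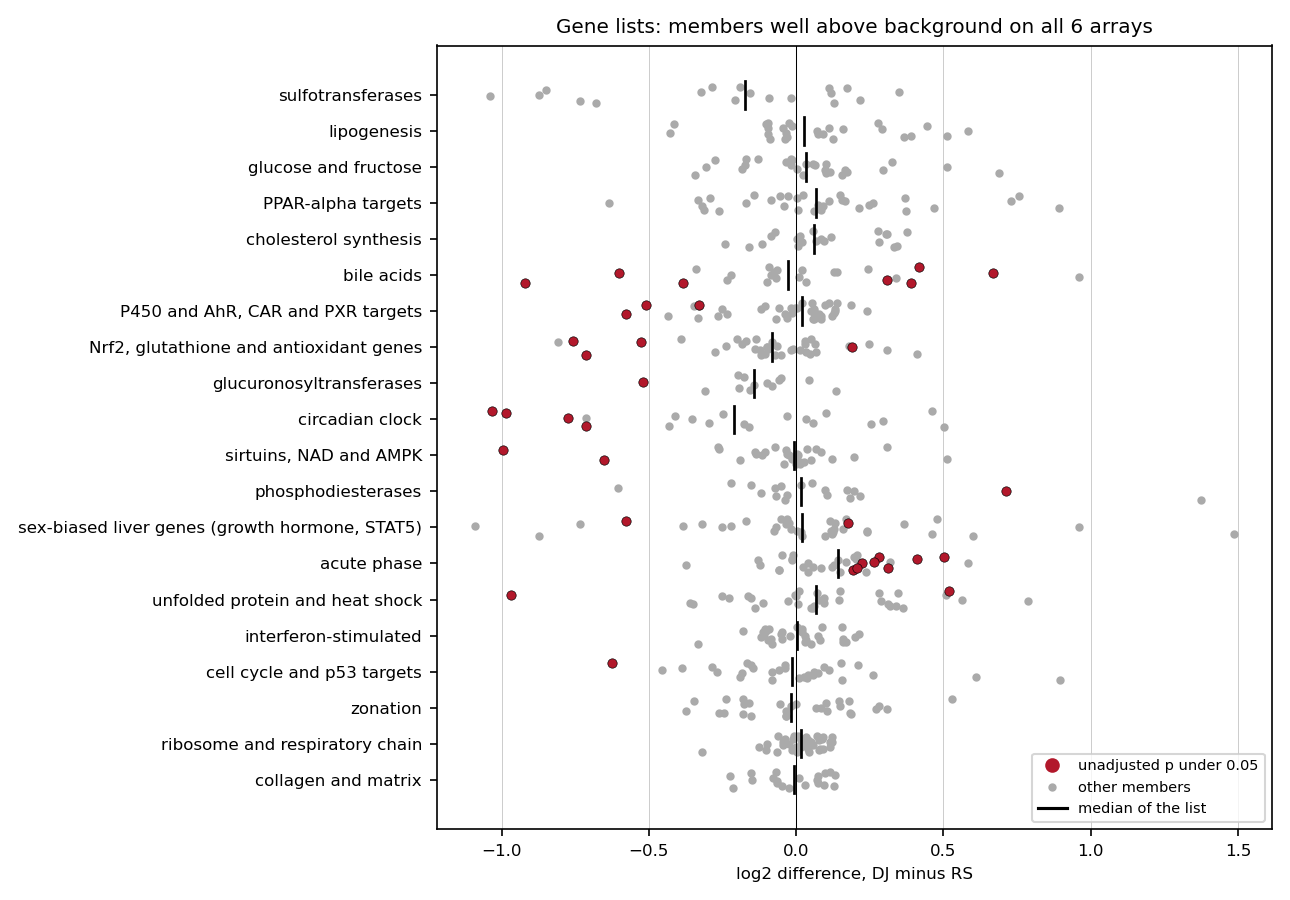
Log2 difference DJ minus RS (x axis) of the members of 20 gene lists that were well above background on all 6 arrays; red points have an unadjusted p under 0.05 in limma, grey points are the other members, and the black line is the median of the list. Red points lie only to the right in the acute phase list and only to the left in the circadian clock list, and 9 lists have none.

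The few genes of drug and xenobiotic metabolism with an unadjusted p under 0.05 were mostly lower in DJ. In the list of cytochromes P450 and targets of their receptors 3 of 41 detected genes were lower and 0 higher (median 0.02). Over all detected genes 1.84% were lower and 1.83% higher. Cyp2a4, a steroid hydroxylase, read 7.49, 7.38 and 7.63 in DJ and 7.95, 8.28 and 8.01 in RS, a difference of -0.58 (SE 0.14), and a second probe gave -0.82. Cyp2a5 is nearly identical in sequence, so that the probes may not tell these genes apart. Por, the reductase that feeds electrons to all microsomal P450 enzymes, read 6.15, 5.88 and 6.15 against 6.42, 6.83 and 6.47 (difference -0.51, SE 0.19). The carboxylesterase Ces2c differed by -0.33. Ces2a, seen to be the fourth without overlap, differed by -0.43. Without DJ replicate 1 the list had 7 lower members and 1 higher (3.15% and 4.03% over all detected genes). Without RS replicate 3 it had 2 lower (1.18%).

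Of 37 detected antioxidant and glutathione genes 3 were lower and 1 higher, beside 1.84% and 1.83% of all detected genes. Gstt2, a theta-class glutathione transferase, read 2.42, 2.50 and 2.73 in DJ and 3.14, 3.12 and 2.96 in RS (difference -0.53, SE 0.13). Gsta4, which conjugates the lipid peroxidation product hydroxynonenal, differed by -0.71, with DJ replicate 3 far below the rest at -0.43. Gpx6, a glutathione peroxidase with a low signal here, differed by -0.76 over all arrays but by -0.29 within the shared slide. Gsr, the reductase that regenerates glutathione, was 0.19 higher. The counts were 2 lower and 4 higher without RS replicate 1 (4.05% and 3.26% over all detected genes). They were 1 lower and 0 higher without RS replicate 3 (1.18% and 1.34%). Of the 13 glucuronosyltransferases, which make resveratrol water-soluble along with the sulfotransferases, Ugt2b1 was lower (1.40, 1.29 and 0.79 against 1.68, 1.61 and 1.75).

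In the remaining lists at most 1 gene in each direction had an unadjusted p under 0.05. The shares over all detected genes were 1.84% lower and 1.83% higher. Hspa1a, an inducible heat shock protein, read -2.94, -3.50 and -3.90 in DJ and -2.30, -2.27 and -2.87 in RS, and Atf5, a factor of the mitochondrial stress response, read 6.72, 6.50 and 6.66 against 5.90, 6.19 and 6.23. These were the only 2 of 34 genes of protein folding and heat shock at an unadjusted p under 0.05, and Hspa5, the chaperone of the endoplasmic reticulum, differed by 0.29 (95% interval -0.19 to 0.77). Hspa1a has a near copy, Hspa1b, which its probe may also read. In the list of 37 sex-biased genes Cyp2a4 was the 1 lower member, and Igf1, the circulating growth factor made by liver, was 0.17 higher in DJ by its brightest probe. Its other 3 probes gave -0.19 to 0.17. In the list of cell cycle genes and targets of p53, Gadd45a differed by -0.63 with overlap.

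The lists of lipogenesis (26 detected genes), glucose and fructose metabolism (27), PPAR-alpha targets (32), cholesterol synthesis (22), sulfotransferases (18), interferon-stimulated genes (31), zonation (29), ribosome and respiratory chain (38) and collagen and matrix (20) had 0 members at an unadjusted p under 0.05 in either direction. Their medians lay between -0.17 for the sulfotransferases and 0.07 for the PPAR-alpha targets. Precision differed among them. The interval lay within 1 log2 unit of 0 for 38 of 38 genes of the ribosome and respiratory chain and for 23 of 27 of glucose and fructose metabolism, but for only 10 of 26 of lipogenesis, 12 of 22 of cholesterol synthesis and 9 of 18 of the sulfotransferases. For these last 3 lists a factor of 2 was thus within the error for many genes. Several of these lists moved with the arrays used. Within the shared slide, where 2.43% of all detected genes were higher and 2.49% lower at an unadjusted p under 0.05, cholesterol synthesis had 5 higher members and a median of 0.39, lipogenesis 2 higher, 1 lower and a median of 0.36, glucose and fructose metabolism 5 higher and a median of 0.14, and zonation 5 higher and a median of 0.11. The cholesterol median was 0.33 without RS replicate 3 but -0.16 without RS replicate 1. Without RS replicate 1 lipogenesis had 4 higher members, PPAR-alpha targets 3 higher and 1 lower, zonation 1 higher and 3 lower, and the sulfotransferases 3 lower (3.26% higher and 4.05% lower over all detected genes). Without DJ replicate 1 zonation had 6 higher and 2 lower (4.03% and 3.15%). Ppara itself differed by -0.17 (95% interval -0.75 to 0.40).

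Among the leading genes higher in DJ, 2 belong to glycerolipid metabolism. Gpd1, the cytosolic enzyme that makes glycerol 3-phosphate, read 5.49, 5.69 and 5.61 in DJ and 5.09, 4.72 and 4.10 in RS, a difference of 0.96 (SE 0.21, limma unadjusted p = 0.00090). The DJ mice were tight here and the RS mice spread. Chka, the kinase that starts phosphatidylcholine synthesis, read 0.18, 0.44 and -0.21 in DJ and -0.52, -1.25 and -0.64 in RS (difference 0.94), and its other 2 probes gave 0.55 and 0.74. Adra2a, an adrenergic receptor, had the largest difference of the 15, 1.97 (SE 0.62), from signals of -3.95, -2.74 and -1.92 in DJ and -4.12, -5.07 and -5.33 in RS. The highest RS mouse was close to the lowest DJ mouse.

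Slc39a5, a zinc transporter, read -2.81, -3.28 and -2.66 in DJ and -3.67, -4.53 and -4.06 in RS (difference 1.17, SE 0.27). Ethe1, the mitochondrial enzyme that oxidises sulfide products, read 2.45, 3.17 and 3.37 against 2.36, 1.71 and 2.19. Sgk2, a kinase related to AKT, read 3.86, 4.54 and 4.73 against 3.59, 3.29 and 3.72. Mad2l2, a subunit of a DNA polymerase for damaged templates, read 2.17, 2.49 and 2.60 against 1.70, 1.48 and 1.56. The control mean was 1.62 and the DJ526 mean 1.64, but 1 control mouse (2.30) lay within the range of DJ. Loxl4 and Spon2, of the extracellular matrix, differed by 1.01 and 1.00, and the second probe of Loxl4 gave 0.86. The rest were Car14 (0.83), a carbonic anhydrase, Eps8l2 (0.77), Adck5 (0.74) and Dtx4 (0.72).

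Cela1, a pancreatic elastase by name, was 1.01 higher in DJ (-4.13, -4.79 and -3.78 against -5.63, -5.26 and -4.84). Of the 15 markers of exocrine pancreas 8 were detected on all 6 arrays, Try4 was well above background on none, and the log2 of their summed signal was 1.63 to 2.11 in DJ and 1.68 to 2.32 in RS, which overlap.

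Among the leading genes lower in DJ, Tnnc1 and Ldb3 are known from muscle. Tnnc1, the calcium sensor of slow and cardiac muscle, read -4.16, -5.33 and -5.89 in DJ and -3.69, -3.76 and -3.51 in RS (difference -1.47, SE 0.40), and Ldb3, of the Z disc, differed by -1.01. The skeletal muscle markers had a summed signal of -1.90 to -1.51 in DJ and of -1.92 to -1.39 in RS. Tsku, a protein secreted by liver, read -2.09, -2.41 and -2.92 against -1.51, -1.47 and -1.70 (difference -0.91, SE 0.19, limma unadjusted p = 0.00052).

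Rec114, a gene of meiotic recombination, had the largest difference of all, -2.66, at a low signal: -3.49, -6.56 and -4.96 in DJ and -2.27, -2.55 and -2.22 in RS. Its SE was 0.98 and its interval reached from -4.82 to -0.50. Further leading genes lower in DJ were Lingo4 (-1.53), 1700048O20Rik (-1.48), 5730412P04Rik (-1.17), Gpha2 (-0.96) and Mettl7a1 (-0.83, but -0.20 within the shared slide).

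The control and DJ526 arrays place these genes. Of the 15 leading genes higher in DJ, the control mean was nearer to RS at 8 and nearer to DJ at 7, and of the 15 lower in DJ it was nearer to RS at 10 and to DJ at 5. DJ526, the other rice, was nearer to RS at 11 of 15 in each direction. Over all 425 genes without overlap at an unadjusted p under 0.05, DJ526 was nearer to RS at 281 and to DJ at 144. For the control mean these counts were 228 and 197. RS replicate 3 shared its slide with DJ526, and DJ replicate 1 with the controls. The part of the slide in these distances was not tested. All 4 groups entered 1 fit and these distances carry no test.

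Genes well above background on all 3 arrays of one group and on none of the other were few, 7 in the direction of DJ and 13 in that of RS. Differences here are bounds on the group means, taken against the lowest signal called well above background on each dim array, or against the dim signal where that was higher. They take no account of the spread between mice. Csf3, the cytokine that drives neutrophil formation, was at least 2.02-fold higher in DJ (-5.68, -6.41 and -5.69, against -7.98, -7.68 and -6.63 not well above background in RS). Skint1, Gpr82 and Bsx were at least 1.32-, 1.21- and 1.27-fold higher, but at Skint1 the measured signals of the groups overlapped. Arhgap36 also overlapped, and its measured difference was 0.33 (95% interval -0.46 to 1.12). In the other direction Slc23a4, a transporter related to those of vitamin C, lay in DJ at least 3.05-fold under RS, and Slco5a1, Dleu7, Vmn1r167 and Prune2 were at least 2.05-, 1.90-, 1.68- and 1.66-fold lower. The 95% interval of the measured difference also included 0 at Vmn1r167 (-2.96 to 0.57), Prune2 (-2.13 to 0.27), Skint1 (-0.15 to 2.26) and Gpr82 (-0.22 to 1.00). Over the alternatives the smallest differences were -0.32 at Slc23a4, -0.10 at Slco5a1, -0.11 at Dleu7, -0.08 at Vmn1r167 and -0.07 at Prune2. For the genes higher in DJ they lay between 0.15 at Arhgap36 and 0.26 at Csf3. At Slco5a1 the measured difference was -1.12 over all 6 arrays and -0.58 within the shared slide. The neutrophil markers, with a summed signal of 6.30 to 6.47 in DJ and of 6.27 to 7.03 in RS, overlapped between the groups.

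Among the genes the study followed by qRT-PCR, the DJ mice lay far apart at the Sult2a genes, Pde5a and Slc49a4. At Duoxa1, Spock1 and Sub1 the RS mice were the more spread. Of 12 genes measured, the reference Gapdh included, 9 were well above background on all 6 arrays and none of these 9 had an unadjusted p under 0.05. Csf3, given above as higher in DJ, was not among these 9. The sulfotransferase Sult2a4, which acts on bile acids and steroids, read 5.29, 5.03 and -0.85 in DJ and 5.0, 3.81 and 3.78 in RS. Sult2a1 read 6.73, 6.41 and 1.20 against 6.37, 5.38 and 5.20, and Sult2a6 6.74, 6.54 and 2.71 against 6.43, 5.92 and 5.68. With DJ replicate 3 the differences of the 3 genes were -1.04, -0.87 and -0.68. Without it they turned to 0.96, 0.92 and 0.63. The control means were 0.22, 2.39 and 3.60, nearer to DJ replicate 3 than to the other DJ mice. Probes of this family are close in sequence and may read each other.

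Pde5a and Slc49a4 (Dirc2 in older lists) set another mouse apart. DJ replicate 1 read 0.98 and 0.38 at these genes, near the control means of 0.83 and -0.01, and the other 2 DJ mice (-3.53 and -2.57, -2.61 and -2.15) lay within the range of RS. Without that mouse the differences were 0.03 and 0.02 in place of 1.38 and 0.94, and within the shared slide, which also leaves out RS replicate 3, they were 0.50 and 0.21. Sub1 (0.08), Duoxa1 (-0.35), Spock1 (-0.18) and Gapdh (0.08) differed by less, and Gapdh by -0.05 to 0.10 over its other 6 probes. Pnoc and Ap3b2 were well above background on at most 1 array of each group.

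**Figure D4:**
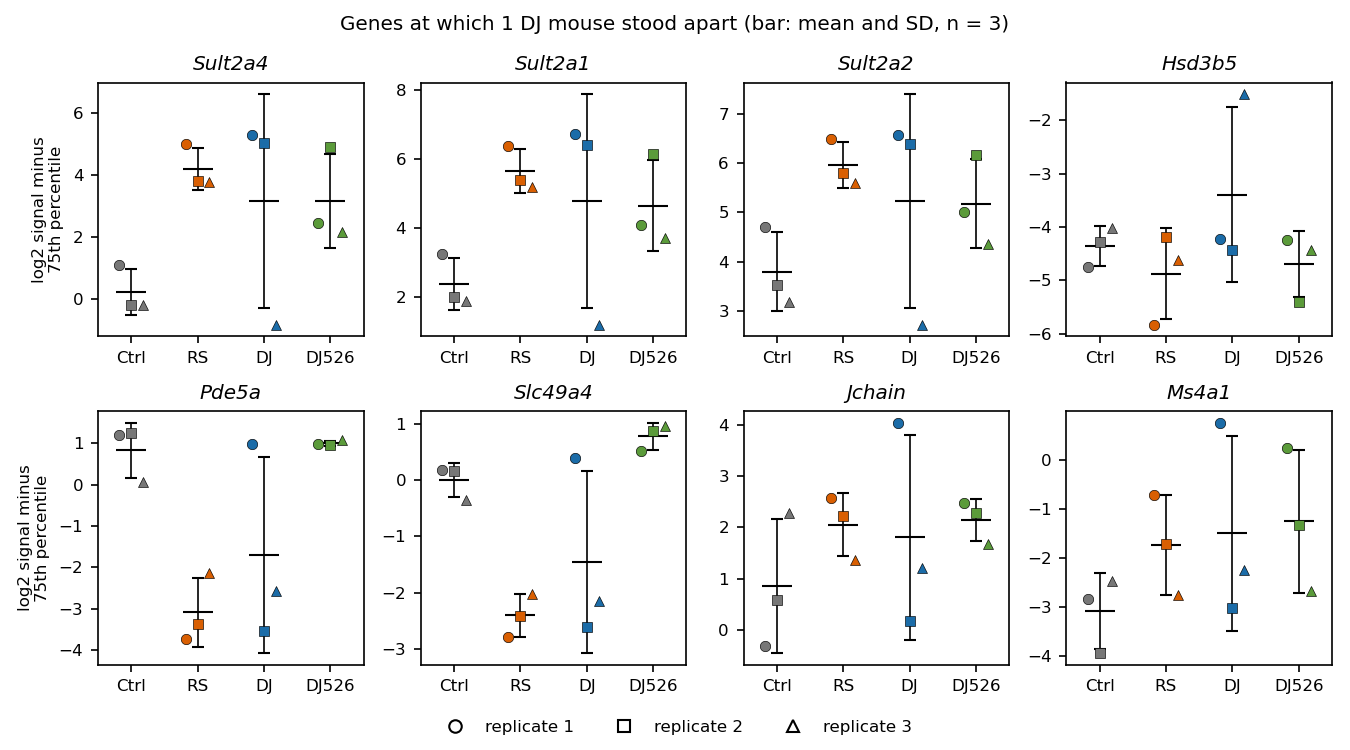
Log2 signal relative to the 75th percentile of the array (y axis) in the 4 diet groups, with 1 point per mouse and bars for mean and SD (n = 3). DJ replicate 3 lies apart from the other DJ mice at Sult2a4, Sult2a1, Sult2a2 and Hsd3b5, and DJ replicate 1 at Pde5a, Slc49a4, Jchain and Ms4a1.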

How the data were processed

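The authors deposited, for each array, the intensity of every spot from Feature Extraction 11.5.1.1 (per the file headers), background-subtracted and on a linear scale, and a table in which that intensity is multiplied by 1 factor per array. Here the unflagged spots of a probe were averaged and put on the log2 scale after scaling each array to its own 75th percentile. Control spots were left out. Probes were named by RefSeq accession (27508 of 39429, with 3 more from the primer table), and 68 probes lacked a value on some array.

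limma 3.58.1 (R 4.3.3) was fitted with 1 mean for each of the 4 groups over 12 arrays, with a variance prior that follows the signal, with the Benjamini-Hochberg adjustment taken across the whole array (threshold 0.05). The tool was tested on simulated data. Precision is limited by 3 arrays per group, and depth was read as signal over background. Each limma p-value sets a difference against the spread between arrays of the same group. In DJ and RS that spread holds slide differences as well as differences between mice, since the main fit had no slide term. The paper reports that mice shared cages and that whole cages were allotted to the diets at random. Cage was not part of the fit, and its share in the differences was not tested.

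Genes were named by a rule: the 15 largest differences in each direction among detected genes without overlap and with an unadjusted p under 0.05, the 5 brightest genes detected in 1 group only, the qRT-PCR panel, up to 6 members of each of 21 lists at an unadjusted p under 0.05 with members that give a list its name, and markers whose sum did not overlap. Members and lists were chosen with earlier results of these data known. Groups follow the array labels; a supplementary sample table lists the accessions of RS and DJ the other way round, as given in the report. Some results are not reported here. Alternatives are given at the end. Python 3.11.15, numpy 2.4.6, pandas 2.3.3, scipy 1.17.1 and matplotlib 3.10.9 were used.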

Additional observations from a re-analysis of the deposited data

How the results depend on the processing

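The count of 0 called probes held in limma under every alternative, with DJ and RS exchanged, in SAM and in the methods' t-test after adjustment, and the smallest adjusted p came without RS replicate 1 (0.0705). The unadjusted count of 1389 was 2593 with array weights (1215 higher and 1378 lower), 939 with the 6 arrays alone and 1068 to 2484 when single arrays were left out (2302 without DJ replicate 1, 2484 without RS replicate 1). SAM gives no unadjusted p, and the replicate block and slide terms do not alter which arrays overlap, so no such counts were made. Detected probes without overlap, 1842 in all (790 higher and 1052 lower), came to 9083 both within the shared slide and with both arrays off it left out, a setting chosen after seeing the data, since 2 against 2 arrays overlap less often. They came to 3431 to 5890 with single arrays left out, for the same reason. Array median scaling gave 1203 higher and 523 lower, and the values as deposited gave 380 and 1843.

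The replicate number did not pair the mice (correlations of deviations 0.042, -0.089 and -0.18), and with it as a block limma had 489 probes higher and 839 lower at an unadjusted p under 0.05 and 0 called.

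Of 93 genes named by the rule 18 changed sign somewhere, none of the 30 leading genes among them, although where single arrays are left out the choice without overlap fixes that. With the slide as a block, within the shared slide and with both arrays off it left out, values were 0.10 for Duoxa1, 0.12 for Tdo2, -0.026 for Cyp2e1, 0.035 for Asgr1 and -0.58 for Arntl. Leaving out RS replicate 3 gave 0.047 for Duoxa1, 2.3e-05 for Spock1, 0.030 for Tdo2, -0.023 for Cyp2e1, 0.0081 for Asgr1 and 0.021 for Sirt1. Leaving out DJ replicate 3 gave 0.96 for Sult2a4, 0.92 for Sult2a1, 0.63 for Sult2a6, 0.025 for Hnf4a and 0.065 for Sirt1. Leaving out RS replicate 1 gave -0.019 for Sub1, -0.067 for Apoa1 and -0.025 for Tat, RS replicate 2 gave 0.048 for Asgr1 and 0.044 for Sirt1, DJ replicate 1 gave 0.013 for Asgr1 and -0.61 for Arntl, and DJ replicate 2 gave 0.063 for Sirt1. The opposite ends of these ranges were -2.11 for Sult2a4, -1.85 for Sult2a1, -1.39 for Sult2a6, 0.34 for Tat, -0.12 for Hnf4a and -0.13 for Sirt1 (without DJ replicate 1), -0.66 for Duoxa1, -0.26 for Spock1, 0.24 for Apoa1 and 0.15 for Cyp2e1 (without RS replicate 2), 0.15 for Sub1 (without RS replicate 3), -0.097 for Asgr1 (without RS replicate 1) and 1.44 for Arntl (without DJ replicate 3). The normexp correction gave 0.96 for Sult2a1, 0.012 for Ap3b2 and 0.0026 for Spock1. Quantile normalization gave -0.040 for Alb, -0.0088 for Ttr, -3.5e-05 for Serpina1a and 0.0072 for Sirt1, array median scaling 0.030 for Hnf4a, 0.072 for Asgr1 and 0.084 for Sirt1, a local correction over the array 0.062 for Hnf4a, 0.056 for Asgr1 and 0.047 for Sirt1, and array weights 0.065 for Tdo2 and -0.0071 for Cyp2e1. The causes were not tested. Of the genes named after their values were seen, Nr1d1 (-0.06 to 1.25), Per1 (-0.09 to 0.15), Saa1 (-0.29 to 0.47), Sult2a2 (-1.59 to 0.52), Ms4a1 (-1.41 to 0.98) and Jchain (-1.71 to 0.57) changed sign as well.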

Other observations

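DJ replicate 3 differed from the other DJ mice at several genes whose expression in liver depends on sex, which were chosen after their values were seen. Sult2a2, a sulfotransferase higher in females, read 6.56, 6.39 and 2.72 in DJ and 6.49, 5.80 and 5.59 in RS. Hsd3b5, a steroid reductase higher in males, read -4.23, -4.44 and -1.51 in DJ and -5.83, -4.18 and -4.62 in RS, and the transporter Slco1a1 read -4.98, -4.39 and -2.38 against -5.28, -5.42 and -3.95. The female controls read 4.70, 3.52 and 3.18 at Sult2a2, below the other DJ mice. They read -4.76, -4.28 and -4.02 at Hsd3b5 and -4.53, -4.23 and -2.81 at Slco1a1. Cyp2a4, also higher in females, was not low in this mouse (7.49, 7.38 and 7.63 in DJ). The Y-linked genes Ddx3y, Eif2s3y, Kdm5d and Uty were well above background on none of the 6 arrays. Xist, the transcript of the inactive X chromosome, read -0.35, 0.74 and 0.62 in DJ and 0.71, 0.18 and 0.54 in RS.

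DJ replicate 1 was high in B cell genes. Ms4a1 read 0.75, -3.01 and -2.24 in DJ and -0.72, -1.71 and -2.76 in RS, and Jchain read 4.04, 0.16 and 1.21 against 2.56, 2.23 and 1.37. The log2 of the summed B cell signal was 5.25 in this mouse and 3.05 to 4.54 in the other 5.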
